A study of Homo sapiens with 34 samples.

Results

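The E protein genes TCF3, TCF4 and TCF12 and the ID genes ID1, ID2, ID3 and ID4 were followed through histone mark peak lists of KELLY cells. The genes were taken by family name and not by any value in the lists. They were 7 of the 19962 protein-coding genes that GENCODE release 44 places on chromosomes 1 to 22 and X, with 3 E protein genes and 4 ID genes. KELLY is a human cell line grown from a neuroblastoma in which MYCN is amplified, and the study asked how RUNX1T1, a co-repressor, shapes chromatin in it. All cells, controls included, carried a stably integrated shRNA that silences RUNX1T1 when doxycycline is given, and they received DMSO (solvent) or doxycycline for 72 h. No cells without this shRNA were given doxycycline, so effects of the drug and of RUNX1T1 silencing cannot be told apart. Chromatin immunoprecipitation and sequencing (ChIP-seq) was run for H3K4me1, H3K4me2, H3K4me3, H3K27ac and H3K27me3, with 3 libraries per mark and treatment, giving 30 peak lists, each called against input (unenriched chromatin). The labels do not say whether the 3 libraries of a group came from separate cultures, so p-values measure the spread between these libraries, which may be technical. The reads behind a list ranged from 71.9 to 81.1 M in DMSO and from 57.0 to 63.4 M in doxycycline after scaling to the smaller of ChIP and input, so depth and treatment cannot be told apart. Peaks do not measure RNA, and RUNX1T1 itself kept start-site peaks of the 4 active marks in 3 of 3 lists of both treatments.

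E proteins are basic helix-loop-helix (bHLH) transcription factors that are present in many tissues and bind the E box, CANNTG, as dimers. They pair with tissue-specific bHLH factors such as HAND2 and TWIST1 to turn on lineage genes. ID proteins have the helix-loop-helix but lack the basic region that touches DNA, so an E protein held by an ID protein cannot bind the E box. ID genes are known targets of BMP signalling, and in neural crest derivatives the balance of ID and E proteins is linked to growth against differentiation. Of the marks, H3K4me3 lies at promoters, H3K4me1 and H3K4me2 also at enhancers, H3K27ac at active elements, and H3K27me3 at genes held silent by Polycomb.

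The promoters of the members are shown first, because the members differ in how their start sites are marked and in which E box they hold. RefSeq sequences (GRCh38.p14) were found for 7 of 7 members, and all matched the hg38 genome used for the lists. The 250 bases before the start are printed 5′ to 3′ in lower case, with any E box (CANNTG, both strands) in capitals. The ID2 and ID4 promoters are given because both hold CAGCTG while their H3K27ac peaks ranked highest and lowest of the set. TCF12 is given for its CACGTG. TCF4 is given for the RefSeq start, which no mark reached, and for the canonical GENCODE start, which was marked.
ID2, chr2:8681806-8682055, plus strand: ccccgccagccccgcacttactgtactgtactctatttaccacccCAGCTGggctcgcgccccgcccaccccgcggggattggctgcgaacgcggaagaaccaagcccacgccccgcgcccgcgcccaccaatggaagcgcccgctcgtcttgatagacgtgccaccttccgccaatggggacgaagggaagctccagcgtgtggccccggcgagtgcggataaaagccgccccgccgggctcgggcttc
ID4, chr6:19837120-19837369, plus strand: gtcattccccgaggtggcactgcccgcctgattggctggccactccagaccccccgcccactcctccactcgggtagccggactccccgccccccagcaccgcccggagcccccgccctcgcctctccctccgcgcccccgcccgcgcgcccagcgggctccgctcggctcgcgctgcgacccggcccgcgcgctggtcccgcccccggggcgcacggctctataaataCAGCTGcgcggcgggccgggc
TCF12, chr15:56917840-56918089, plus strand: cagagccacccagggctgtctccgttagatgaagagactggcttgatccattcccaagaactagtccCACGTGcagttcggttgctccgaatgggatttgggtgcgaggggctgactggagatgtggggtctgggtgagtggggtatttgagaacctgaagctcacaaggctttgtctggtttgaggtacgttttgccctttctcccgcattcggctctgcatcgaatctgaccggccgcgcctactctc
TCF4 RefSeq start, chr18:55635958-55636207, minus strand: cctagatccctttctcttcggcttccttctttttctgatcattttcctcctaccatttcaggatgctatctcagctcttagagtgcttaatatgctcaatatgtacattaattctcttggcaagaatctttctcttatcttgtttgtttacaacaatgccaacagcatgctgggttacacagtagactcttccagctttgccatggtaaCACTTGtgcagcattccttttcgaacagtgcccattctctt
TCF4 canonical start, chr18:55588193-55588442, minus strand, read from hg38: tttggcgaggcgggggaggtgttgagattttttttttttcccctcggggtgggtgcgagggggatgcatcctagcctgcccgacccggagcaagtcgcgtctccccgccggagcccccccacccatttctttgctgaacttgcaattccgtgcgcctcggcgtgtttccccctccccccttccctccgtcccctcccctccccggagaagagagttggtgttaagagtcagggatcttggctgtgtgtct
An E box was present in 4 of the 7 RefSeq promoters. The site lay 205 bases before the start in ID2, 21 in ID4, 183 in TCF12 and 41 in TCF4, where it read CACTTG. Over 15315 coding promoters of the same length, 57.6% held CANNTG, 7.84% CACGTG, 13.3% CAGCTG and 9.75% CATCTG, the last 3 being forms of the first. CATCTG was in 0 of the 7 members, and the canonical TCF4 start, TCF3, ID1 and ID3 showed no E box in this window. These are matches of letters and not measured binding. Base composition set the unmarked TCF4 promoter apart, with 40.8% G and C against 62.0% at the marked TCF4 start and a median of 62.4% over all promoters. The other 6 members lay between 56.0% in TCF12 and 79.6% in TCF3.

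All 7 members carried the marks of active promoters at their start sites, and H3K27me3 was in all 3 libraries of a treatment at none of them. A start-site peak is a peak within 1 kb of any annotated start of a gene. H3K4me2, H3K4me3 and H3K27ac start-site peaks were in 6 of 6 lists for 7 of 7 members, which was so for 71.8%, 71.9% and 64.2% of all coding genes. H3K4me1 was in 6 of 6 lists for 6 members and 61.4% of coding genes. ID4 was the exception, with H3K4me1 in 2 of 3 DMSO lists and 3 of 3 doxycycline lists. H3K27me3 was in no list at 5 members (64.4% of coding genes). It was seen at TCF12 in 1 DMSO list, as a peak of 0.177 kb, and at ID4 in 2 of 3 lists of each treatment. With all 3 libraries required, 6 members had the 4 active marks in DMSO and 7 in doxycycline, a state shared by 48.6% and 47.6% of coding genes. Genes with many annotated starts have more windows in which a peak can fall, TCF4 with 90 starts and ID4 with 1.

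**Figure D1:**
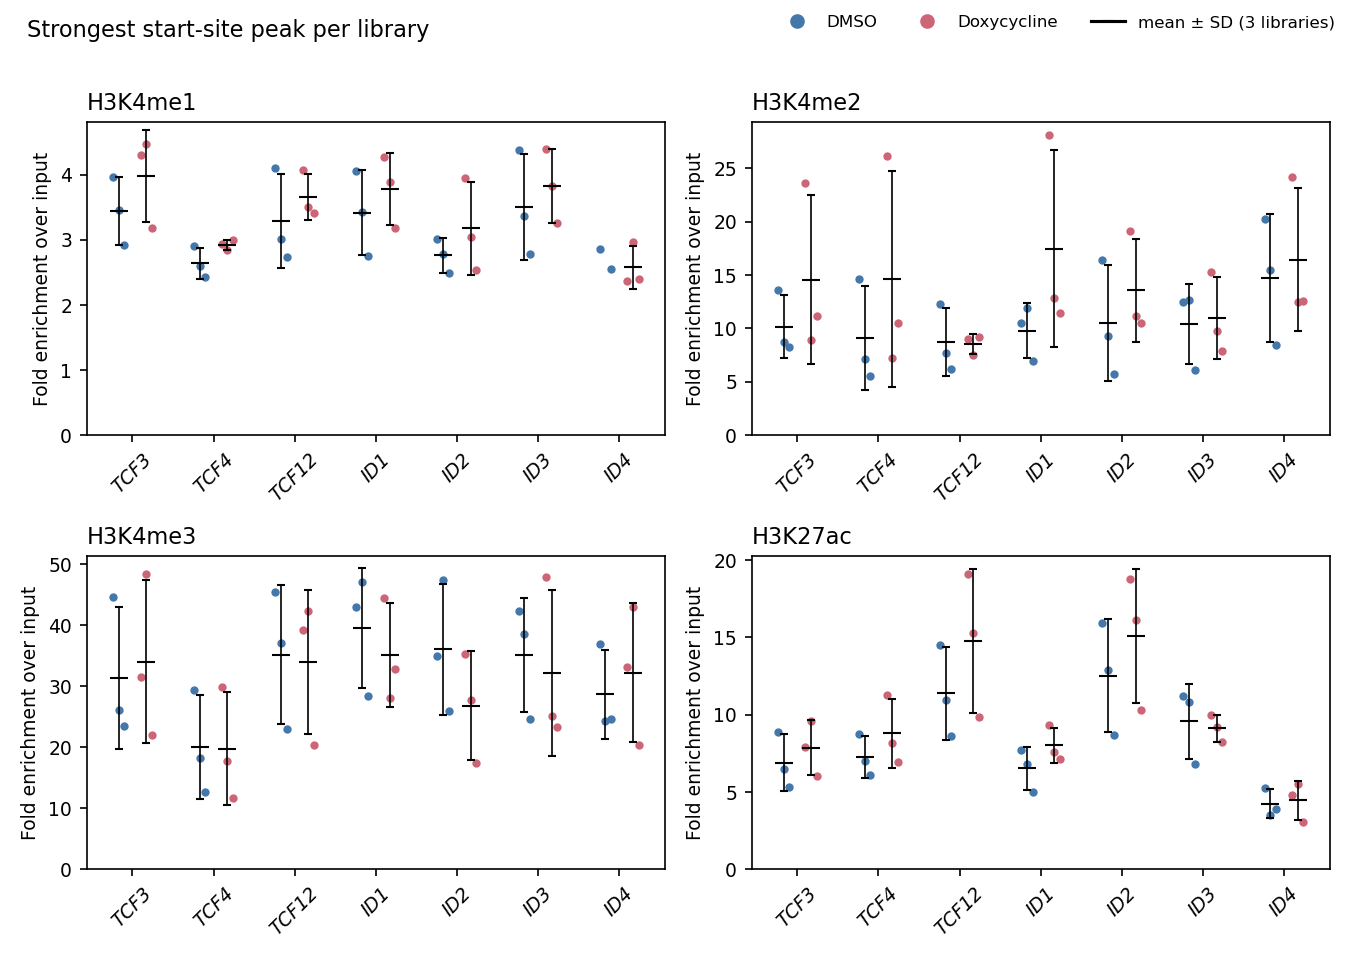
Fold enrichment over input (vertical axis, from 0) of the strongest start-site peak of each member in H3K4me1, H3K4me2, H3K4me3 and H3K27ac. Points are the 3 DMSO and 3 doxycycline libraries, bars are mean ± SD, and no bar is drawn for ID4 H3K4me1 in DMSO, where 1 library had no peak. The libraries of the treatments overlap for every member with a peak in all 6 lists, ID2 and TCF12 are the highest in H3K27ac (8.61 to 19.1) and ID4 is the lowest (3.05 to 5.54).

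TCF3 encodes E12 and E47, the E proteins first found as partners in immunoglobulin and muscle gene control. It lies on chr19:1609291-1652615 on the minus strand, and its 18 starts fall into 3 clusters, a cluster being starts whose 1 kb windows overlap, placed by its midpoint. The outer cluster, which holds the canonical start, had H3K4me3 in 6 of 6 lists, at 44.7-, 26.0- and 23.4-fold enrichment in DMSO and 31.6-, 48.4- and 22.0-fold in doxycycline. The DMSO and doxycycline libraries overlapped. A cluster 31.9 kb into the gene had H3K27ac in 6 of 6 lists (2.29- to 2.80-fold), H3K4me1 in 5 and H3K4me3 in none. The innermost cluster, 36.8 kb in, had no mark in any list. TCF3 had the most H3K27me3 of the members in its window, that is, the gene body and 50 kb either side. This mark covered 27.1, 23.2 and 21.1 kb of that window in DMSO and 29.5, 25.6 and 24.2 kb in doxycycline. The widest H3K27me3 region there in all 6 lists spanned 135 kb (chr19:1677318-1812423) once the peaks of the lists were merged. Its widest single peak per list measured 21.3 to 135 kb. The merged region began 24.7 kb before the TCF3 start and overlapped ATP8B3 and ONECUT3, the latter a neuronal homeobox gene. Of the H3K4me1 regions beside TCF3 that lacked H3K4me3, 3 in DMSO and 2 in doxycycline also had H3K27me3 without H3K27ac, a combination called poised. The DMSO regions chr19:1686981-1688739 and chr19:1690318-1691877 both overlapped the doxycycline region chr19:1687835-1691896, so the lower count reflects how peaks were joined. The other 6 members had 0 poised regions in their windows in both treatments.

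TCF4, mutated in Pitt-Hopkins syndrome and used in many neurons, was the longest member and was marked at internal starts rather than at its outermost ones. It spans 443 kb on the minus strand (chr18:55222185-55664787), and its 90 starts form 19 clusters. H3K4me3 was in 6 of 6 lists at 4 clusters, 76.4, 242, 343 and 362 kb from the outermost start, and in 0 lists at the other 15. The cluster at 76.4 kb holds 34 starts, the canonical one among them. There H3K4me3 was enriched 29.3-, 14.6- and 12.6-fold in DMSO and 29.9-, 17.7- and 11.7-fold in doxycycline. The clusters at 0, 28.9 and 33.4 kb, including the RefSeq start printed above, had no mark in any list. H3K27ac was in 6 of 6 lists at 7 clusters, among them 3 without H3K4me3 in any list. Summed over these starts, the width of H3K4me3 peaks was 15.4 to 21.0 kb over the 6 lists, at the 99.98th percentile of 14343 coding genes, and that of H3K27ac was 59.6 to 104 kb. The strongest H3K4me3 start-site peak of TCF4 was nevertheless weak for a coding gene, at a percentile of 7.87 to 16.7 (the percentile is the rank of −log10 q among coding genes with a start-site peak in the same library). TCF4 was thus broad in H3K4me3 as a sum over its starts, and low in peak strength, in both treatments. That sum can grow with the number of starts. Its widest single H3K4me3 peak, at the cluster of the canonical start, measured 7.54 to 9.95 kb.

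TCF12, whose loss of function causes a form of craniosynostosis, had its strongest H3K4me2, H3K4me3 and H3K27ac start-site peaks at the outer cluster of starts. It lies on chr15:56918623-57299281 on the plus strand, with 25 starts in 10 clusters, and the outer cluster is shared within 1 kb with ENSG00000285253, so peaks there cannot be assigned to 1 gene. H3K4me3 was in 6 of 6 lists at the outer cluster, in 1 of 6 at the cluster 329 kb into the gene, and in none at the other 8. H3K27ac there was enriched 14.5-, 11.0- and 8.61-fold in DMSO and 19.1-, 15.3- and 9.86-fold in doxycycline, which gave percentiles of 95.5 to 98.9. The treatments overlapped. H3K27ac was also in 6 of 6 lists at the clusters 301 and 329 kb into the gene, which had H3K4me1 in 6 of 6 lists as well. H3K4me1 was stronger at the 329 kb cluster (2.74- to 4.11-fold) than at the outer cluster (1.86- to 2.90-fold). The widest H3K4me1 region of the TCF12 window in all 6 lists measured 19.5 kb with the peaks of the lists merged (chr15:57319635-57339139). Its widest single peak per list measured 5.81 to 7.58 kb. The merged region began 20.4 kb past the end of the gene.

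**Figure D2:**
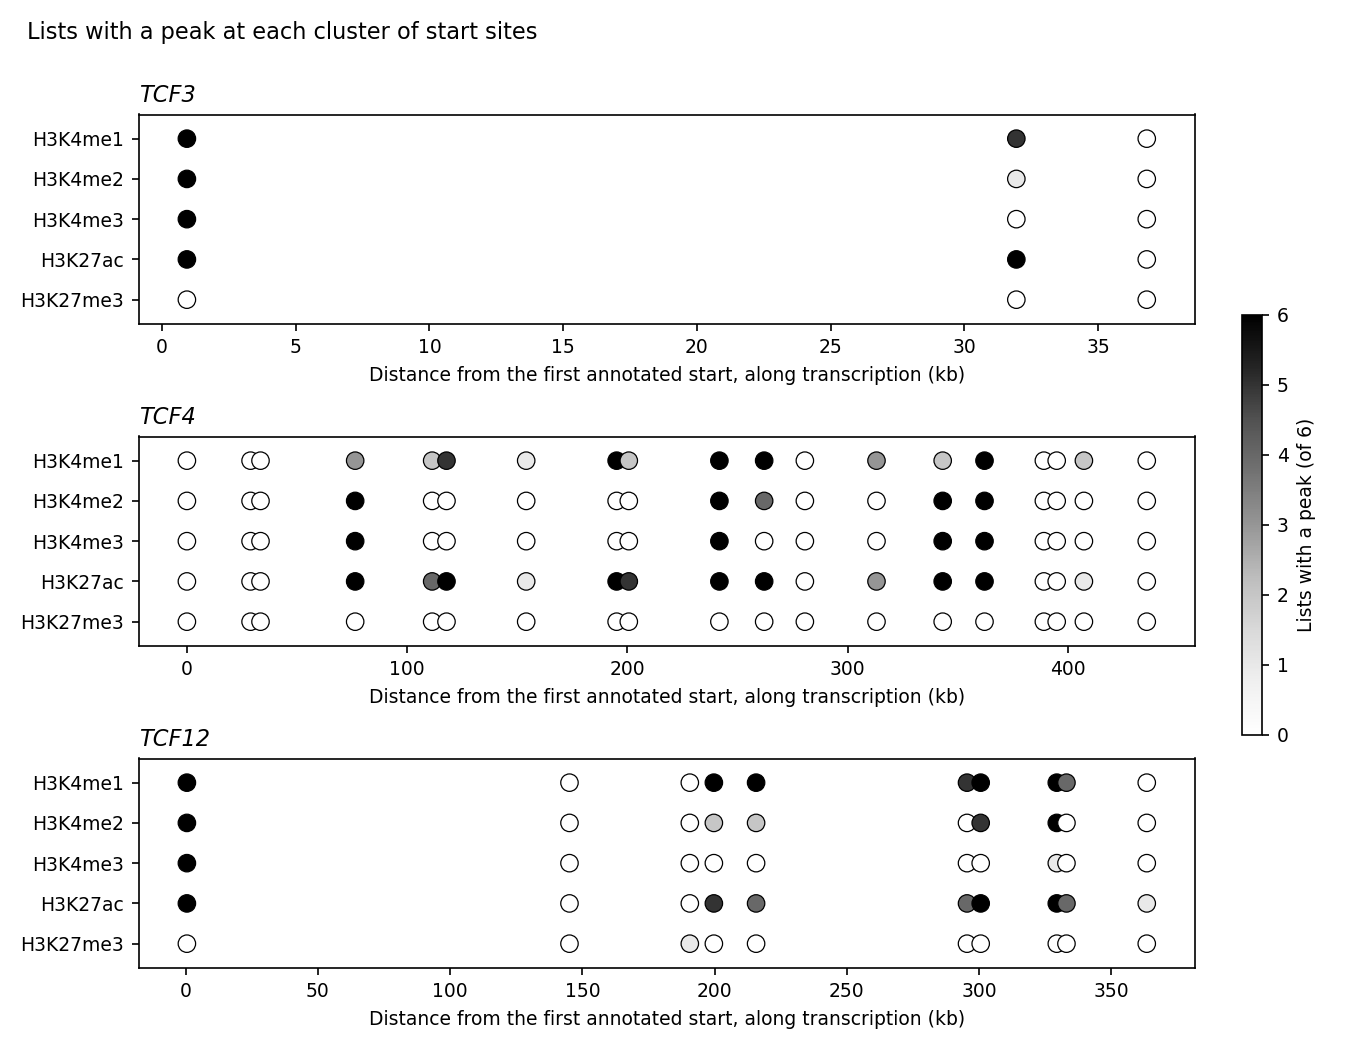
Number of lists (of 6, both treatments together, grey scale) with a peak within 1 kb of each cluster of start sites of TCF3, TCF4 and TCF12, plotted by distance in kb from the outermost start. H3K4me3 is in all 6 lists at 1 of 3 clusters of TCF3, 4 of 19 of TCF4 and 1 of 10 of TCF12.

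ID1, a short BMP-responsive gene, had the 4 active marks at its promoter and no H3K27me3 within 50 kb in any list. It spans 1.23 kb (chr20:31605283-31606515, plus strand). H3K4me3 was enriched 42.9-, 47.1- and 28.4-fold in DMSO and 44.5-, 28.0- and 32.9-fold in doxycycline, and the libraries overlapped. The H3K4me3 peak measured 3.95, 4.14 and 3.66 kb in DMSO and 5.19, 5.42 and 3.92 kb in doxycycline, so that 2 of the 3 doxycycline peaks were wider than every DMSO peak. On the log2 scale the difference was 0.29 ± 0.12 (SE), with an adjusted p of 0.992 in limma. With the replicate number as a block in limma the adjusted p was 0.181. The widest H3K27ac region in all 6 lists of this window (25.6 kb with the lists merged, chr20:31556462-31582099) lay 23.2 kb away. It covered a start of HM13, not of ID1, and its widest single peak per list measured 6.92 to 24.2 kb.

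ID2, a target of MYC family proteins and of BMP signals, had the highest H3K27ac rank of the set. The gene lies on chr2:8678845-8684461 on the plus strand. H3K27ac at its start sites was enriched 16.0-, 12.9- and 8.71-fold in DMSO and 18.8-, 16.1- and 10.3-fold in doxycycline. These peaks ranked at the 99.0 to 99.7th percentile of coding genes in all 6 libraries, and their width of 9.85 to 10.5 kb was nearly constant. H3K4me3 covered 9.20 to 9.70 kb, more than in any other member but TCF4 and at the 99.4th percentile of coding genes. The percentile of the H3K4me3 peak was 87.3, 91.0 and 90.0 in DMSO and 79.3, 69.6 and 70.0 in doxycycline. All doxycycline libraries were below all DMSO libraries, by 16.5 ± 6.19 percentile points (SE), with an adjusted p of 0.263 in limma. The fold enrichment of the same peaks, 35.0, 47.3 and 25.9 against 35.3, 27.7 and 17.5, did overlap.

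ID3, coexpressed with ID1 in many tissues, stood in the densest H3K27ac and H3K4me1 neighbourhood of the 7. It lies on chr1:23557926-23559501 on the minus strand. H3K27ac peaks covered 64.9, 59.2 and 55.8 kb of its window in DMSO and 77.1, 71.7 and 65.9 kb in doxycycline, at the 99.9th percentile of all coding genes. The 3 doxycycline libraries were above the 3 DMSO libraries, with a log2 difference of 0.25 ± 0.11 (SE) and an adjusted p of 0.525 in limma. With the replicate number as a block the adjusted p was 0.126, and with 10 kb in place of 50 kb either side the difference was 0.03 (adjusted p = 1). The peak over the start measured 26.8, 21.3 and 19.5 kb in DMSO and 78.7, 63.7 and 22.9 kb in doxycycline. In doxycycline 1 and 2 a single peak ran from −62.7 and −47.7 kb to 16.0 kb relative to the start. The other 4 lists had separate peaks there, among them 1 of 17.4 to 19.6 kb that lay between −47.5 and −27.9 kb and over no coding start. Doxycycline 3 thus resembled the DMSO lists in how the peaks were divided.

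**Figure D3:**
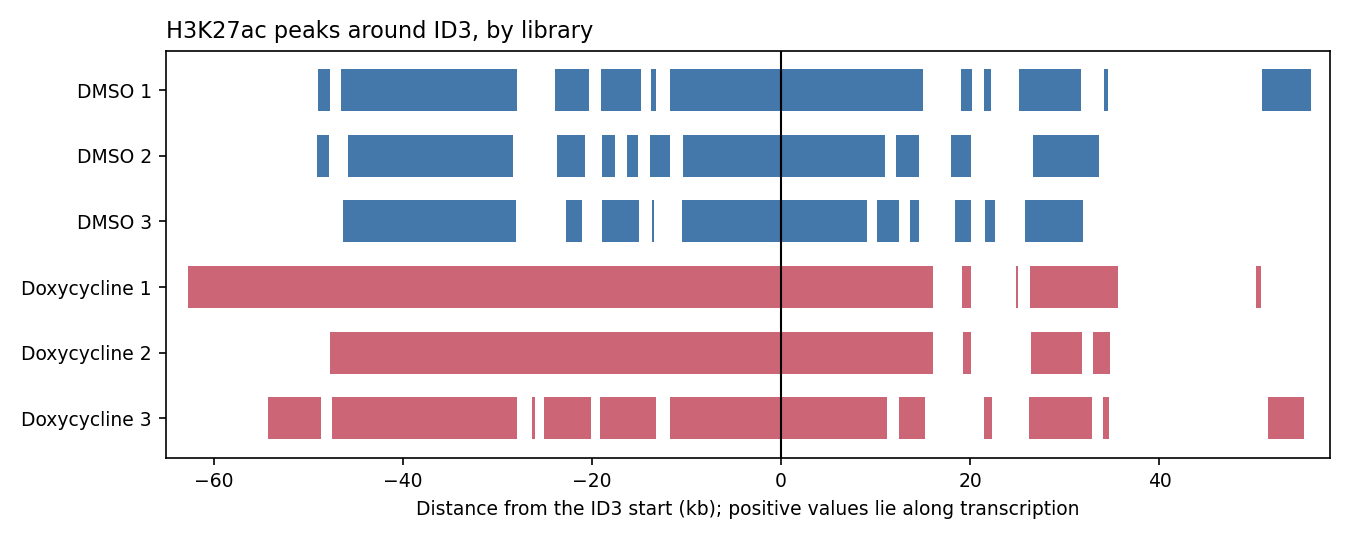
H3K27ac peaks (bars) of each library by distance in kb from the ID3 start, the vertical line at 0, with positive values along transcription. Doxycycline 1 and 2 have 1 peak of 78.7 and 63.7 kb over the start, and the other 4 libraries have several peaks there.

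The same ID3 peak ranked lower in the libraries where it was long. Its H3K27ac percentile was 90.3, 93.0 and 87.4 in DMSO and 60.7, 70.5 and 89.4 in doxycycline. The low values were those of doxycycline 1 and 2, and the third doxycycline library lay within the DMSO range. The difference was −16.7 ± 6.16 percentile points (SE), with an adjusted p of 0.191 in limma. Without doxycycline replicate 3 it was −24.6 with an adjusted p of 0.0375, the single setting in which any member passed the threshold. In these broad lists the −log10 q of a peak is a mean over its whole length, so length and rank are not independent, and the part of length in the rank was not tested. A separate peak of 5.36 to 9.31 kb, lying between 25.1 and 35.6 kb past the ID3 start, held a start of E2F2 in 6 of 6 lists, so the ID3 window also takes in the promoter of a neighbouring gene, a cell cycle regulator.

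ID4, an ID gene often found silenced by promoter methylation in cancer, had the weakest H3K27ac of the set. It lies on chr6:19837370-19842197 on the plus strand and has 1 start. H3K4me3 was enriched 37.0-, 24.2- and 24.7-fold in DMSO and 33.2-, 43.0- and 20.3-fold in doxycycline, and H3K4me2 had the highest mean fold of the members (15.6-fold, percentile 92.9 of coding genes). H3K27ac at the start was enriched 5.29-, 3.51- and 3.93-fold in DMSO and 4.80-, 5.54- and 3.05-fold in doxycycline, with percentiles of 10.1 to 21.2. A stronger H3K27ac region of 6.18 kb (chr6:19801133-19807314), enriched 6.82- to 10.01-fold in the 6 lists, lay 30.1 kb before the start over no coding gene. H3K27me3 peaks within 1 kb of the start were 4.52 and 1.10 kb wide in DMSO 1 and 3 and 5.61 and 1.72 kb in doxycycline 1 and 2, enriched 2.20- to 2.97-fold. The other 2 libraries had H3K27me3 peaks elsewhere in a merged region of 6.48 kb (chr6:19833679-19840163) that all 6 lists touched. The caller estimated fragments of 256, 112 and 105 bp for the H3K27me3 libraries in DMSO and 265, 280 and 108 bp in doxycycline, and the part of this estimate in the presence of weak peaks was not tested. The H3K4me2 percentile of ID4 was 88.1, 91.3 and 80.9 in DMSO and 69.0, 73.8 and 60.5 in doxycycline, without overlap. That difference of −19.0 ± 7.29 percentile points (SE) had an adjusted p of 0.473 in limma.

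Ordered by the median H3K27ac percentile, the members ran ID2 (99.6), TCF12 (97.6), ID3 (88.4), TCF3 (63.2), ID1 (59.9), TCF4 (43.98) and ID4 (18.6). Neither family was uniformly high, since ID genes held both ends of the order. Taking all 6 libraries together, the ranges of ID3 and TCF3 and of TCF3 and ID1 overlapped. The ranges of the other neighbours in the order did not overlap, ID2 and TCF12 by the smallest margin (99.0 as the lowest ID2 value against 98.9 as the highest of TCF12). These are ranks within a library and carry no test between genes.

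**Figure D4:**
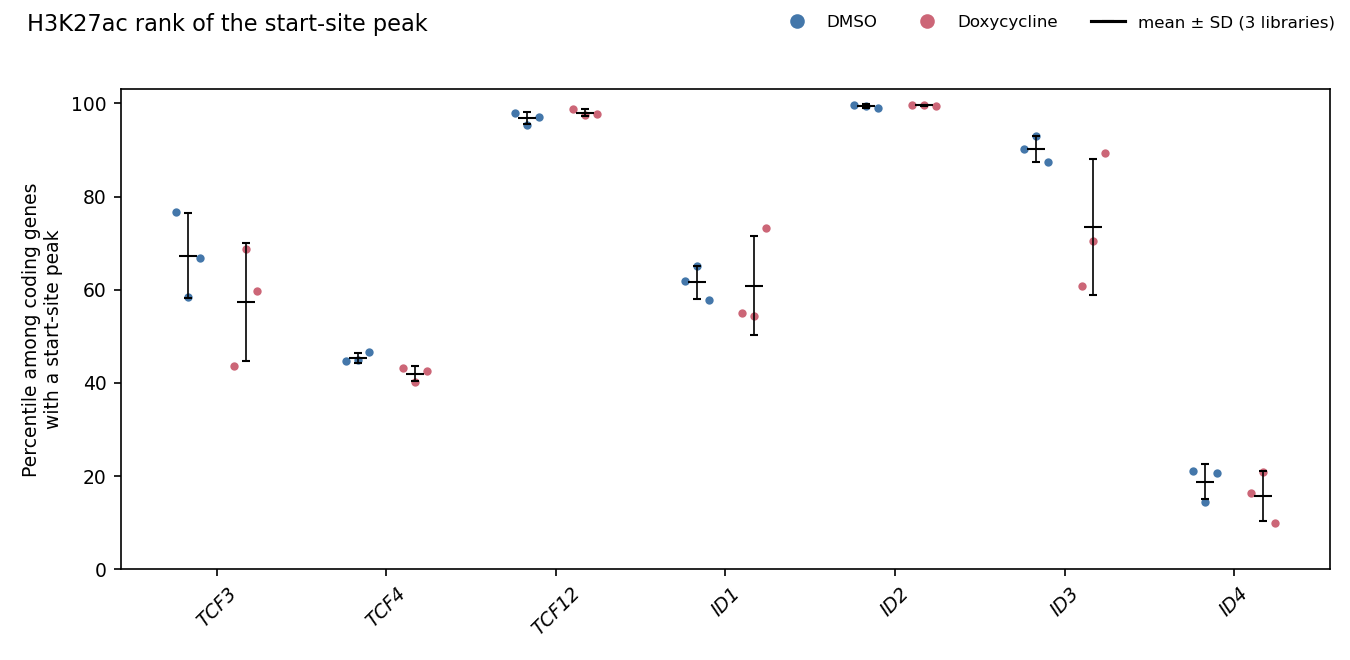
Percentile (vertical axis, 0 to 100) of each member's H3K27ac start-site peak among coding genes with such a peak in the same library. Points are libraries and bars are mean ± SD of 3 per treatment. ID2 and TCF12 lie at 95.5 or higher in all libraries and ID4 at 21.2 or lower, and ID3 is at 60.7 and 70.5 in 2 doxycycline libraries.

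Doxycycline against DMSO was then compared for all members, and no member passed any test. A start-site peak was called changed where it was in 3 of 3 lists of a treatment and 0 of 3 of the other. This held for 0 of 7 members in each mark. Over all coding genes it held for 0.316% in H3K4me1, 0.0301% in H3K4me2, 0.130% in H3K4me3, 0.331% in H3K27ac and 0.190% in H3K27me3. An exact test on 3 against 3 libraries cannot give p below 0.1.

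Peak strength also gave no call. For the percentile of the start-site peak, limma (Benjamini-Hochberg adjusted p under 0.05 over all coding genes with a peak in 6 of 6 lists) called 0 of 6 members in H3K4me1 and 0 of 7 in H3K4me2, H3K4me3 and H3K27ac. The shares called over all genes were 0, 0, 0.439 and 1.79%. With the replicate block the H3K4me3 share was 1.74%, and 0 of 7 members were called. At an unadjusted limma p under 0.05, 3 of the 27 tests on members passed, all 3 lower in doxycycline. They were those of ID2 in H3K4me3, ID3 in H3K27ac and ID4 in H3K4me2 given above. The share of all genes under this unadjusted threshold was not computed for rank, width or coverage. Counts of members at that threshold therefore cannot be weighed and are not read as a result. Libraries of the treatments did not overlap for 0 members in H3K4me1, 2 in H3K4me2 (ID4 and TCF12), 1 in H3K4me3 (ID2) and 1 in H3K27ac (TCF4), against 16.3, 14.4, 17.1 and 23.6% of genes. For TCF12 the H3K4me2 percentiles were 44.7, 32.7 and 23.6 in DMSO and 22.6, 21.4 and 18.1 in doxycycline (−12.9 ± 7.65, adjusted p = 0.645). For TCF4 the H3K27ac percentiles were 44.7, 44.9 and 46.6 in DMSO and 43.3, 40.2 and 42.5 in doxycycline (−3.40 ± 4.35, adjusted p = 0.725). Neither passed the threshold. The strongest H3K27ac start-site peak of TCF4 was not at the same cluster of starts in every library. It lay 362 kb from the outermost start in DMSO 2 and 3, and 343 kb from it in the other libraries. At the 343 kb cluster alone, percentiles among all peaks of a list were 89.0, 83.4 and 86.2 in DMSO. In doxycycline they were 87.8, 83.9 and 85.4, which overlapped the DMSO values. The median difference over the members was 0.86 in H3K4me1, −0.05 in H3K4me2, −5.82 in H3K4me3 and −3.07 in H3K27ac, where the median over all genes was −0.14, 0.90, −0.26 and −0.24. In H3K4me3, 6 of 7 members had a lower mean percentile in doxycycline, but 0 of 7 passed the threshold. The lowest adjusted p of the 7 in limma was 0.263, that of ID2. The share of all genes with a lower mean is not given here. The count of 6 therefore cannot be weighed and is not read as a shift of the members.

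The width of start-site peaks called 0 of 6 members in H3K4me1 and 0 of 7 in H3K4me2, H3K4me3 and H3K27ac, with 0, 0, 0.146 and 0.0702% of genes called. In H3K4me3 the replicate block raised that share to 0.509% and called 0 of 7 members. No member had separate libraries in width, against 10.7, 2.48, 10.2 and 12.7% of genes. At an unadjusted p under 0.05, 1 of 27 tests passed, the H3K4me3 width of ID1. For ID3 the H3K27ac width difference was 1.12 ± 0.48 on the log2 scale (adjusted p = 0.717), the largest in size of the 27 and carried by 2 of 3 libraries.

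Coverage of the windows by peaks called 0 of 7 members in each of the 5 marks. The shares called over 19962 genes were 0, 0, 0.0451, 0.321 and 0.00501% in H3K4me1, H3K4me2, H3K4me3, H3K27ac and H3K27me3. With the replicate block they were 0% in H3K4me3 and 0.00501% in H3K27ac, and 0 of 7 members were called. At an unadjusted p under 0.05, 0 of 35 tests passed. Libraries did not overlap for 1 member, ID3 in H3K27ac, against 7.28, 1.01, 6.33, 14.7 and 0.832% of genes in the same order of marks. In H3K27ac the mean was higher in doxycycline for 7 of 7 members, with a median log2 difference of 0.24. Of all coding genes 38.3% were higher, with a median of −0.00325, but that share includes genes without H3K27ac peaks in the window, which cannot be higher. It also depended on filter, list length and scaling. Among genes with a mean of 2000 bp or more covered it was 44.4%, and with lists of equal length 45.9%, with 7 of 7 members higher in both. With each library centred on its median, 69.4% of all genes were higher, with a median of 0.14, and the members' median was 0.39 (7 of 7 higher). The smallest difference was that of TCF12 (0.03) and the largest that of ID4 (0.32 ± 0.19, adjusted p = 0.712), whose windows held 10.7, 7.16 and 6.39 kb in DMSO and 10.7, 9.44 and 10.1 kb in doxycycline. With 10 kb flanks 5 of 7 members were higher. Leaving out a library gave 7 of 7 without DMSO replicate 1, 5 of 7 without doxycycline replicate 1 and 6 of 7 without any of the other 4.

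**Figure D5:**
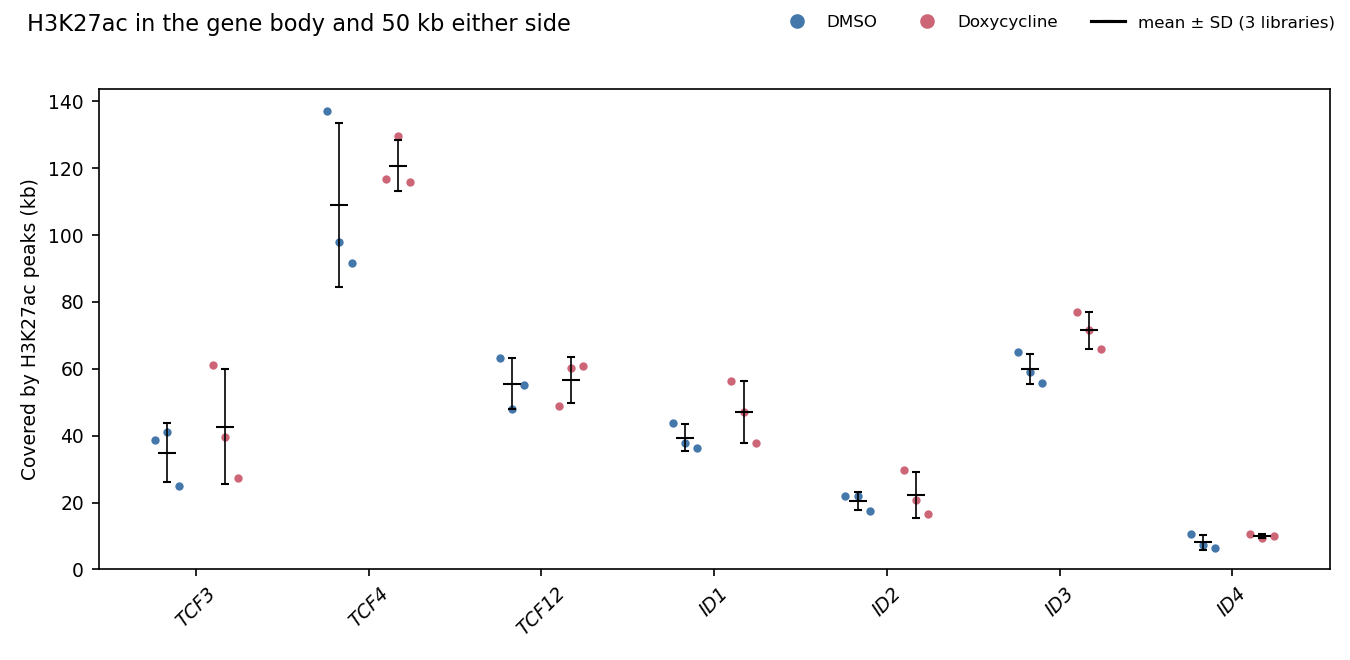
Length covered by H3K27ac peaks (kb, from 0) in the body of each member and 50 kb either side. Points are libraries and bars are mean ± SD of 3 per treatment. Means are higher in doxycycline for all 7 members, and only ID3 has separate libraries (55.8 to 64.9 kb in DMSO and 65.9 to 77.1 kb in doxycycline).

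Individual regions near the members rarely followed the treatment. Peaks of the 6 lists of a mark were merged, and a region was called where it was in 3 of 3 lists of a treatment and 0 of 3 of the other. In H3K4me1, 3 of 179 regions in the 7 windows were called (1.68%), against 1.77% of 188491 regions in the genome. All 3 were lost in doxycycline, 1 within TCF4 (chr18:55386138-55388116), 1 within TCF12 (chr15:57035823-57036586) and 1 past the end of TCF12 (chr15:57343273-57344715). In H3K4me2, 2 of 142 were lost, against 0.471% called in the genome, 1 within TCF12 (chr15:57081722-57082745) and 1 within HM13 beside ID1 (chr20:31560199-31560933). In H3K4me3, 1 of 45 was gained (1.34% in the genome), 46.9 kb from the TCF3 starts (chr19:1568445-1568888). In H3K27ac, 1 of 158 was gained (3.30% in the genome), within TCF4 (chr18:55455897-55456491). In H3K27me3, 0 of 19 were called (0.458% in the genome). The called regions were 0.444 to 1.98 kb wide. Where present, the H3K4me1 regions were enriched 1.97- to 3.00-fold, the H3K4me2 regions 3.12- to 7.26-fold, the H3K4me3 region 5.22- to 10.05-fold and the H3K27ac region 2.44- to 2.76-fold. Their percentiles among all peaks of a list ran from 0.58 (within TCF4, H3K4me1, DMSO 2) to 68.1 (past TCF12, H3K4me1, DMSO 1). Leaving out a single library gave 3 to 8 called regions in H3K4me1, 2 to 3 in H3K4me2, 1 to 3 in H3K4me3 and 1 to 6 in H3K27ac. With a library left out the rule asks for fewer lists, so every called region stays called. These counts could therefore only stay or rise, and the genome share under the looser rule was not computed. In H3K4me1 there were 6 without DMSO 1, 8 without DMSO 2 or doxycycline 2, and 5 without DMSO 3 or doxycycline 1. In H3K4me3 there were 2 without DMSO 3 or doxycycline 2 and 3 without doxycycline 3. In H3K27ac there were 3 without DMSO 1 or doxycycline 2, 2 without DMSO 3 or doxycycline 3, and 6 without doxycycline 1. Regions in all 6 lists numbered 72 of 179 in H3K4me1 (40.2%), 47 of 142 in H3K4me2 (33.1%), 27 of 45 in H3K4me3 and 50 of 158 in H3K27ac (31.6%), where the genome had 31.3, 29.8, 65.7 and 28.5%.

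Elements with H3K4me1 but no H3K4me3, the usual signature of enhancers, were counted in the windows of the members. Requiring all 3 libraries of a treatment, the 7 windows held 35 regions with H3K27ac (active) in DMSO and 32 in doxycycline, and 20 and 13 with neither H3K27ac nor H3K27me3 (primed). Over the genome, active regions numbered 21292 and 17041 and primed regions 33612 and 30034. H3K4me1 regions with H3K4me3, left out of these classes, numbered 32 and 38 in the windows, with 3 and 7 at TCF4. The genome had 21148 and 20431 of them. At TCF3, 1 region without H3K4me3 had both H3K27ac and H3K27me3 in doxycycline, against 0 in DMSO. TCF4 had 11 and 9 active regions, TCF12 11 and 12, and TCF3 3 and 1. ID2 had 4 in both, ID3 3 in both, ID1 2 in both and ID4 1 in both. Equal counts did not always mean the same regions. At ID3, chr1:23503464-23509044 was classed as active in DMSO alone and chr1:23587486-23608506 in doxycycline alone. At ID2, the DMSO region chr2:8622323-8638830 overlapped separate doxycycline regions at chr2:8622273-8632487 and chr2:8633298-8638686. The counts thus depend on how peaks are split. The windows differ in length, 543 kb at TCF4 and 481 kb at TCF12 against 106 kb at ID2 and 102 kb at ID3, so the higher counts at TCF4 and TCF12 do not mean a higher density. At ID2 the widest merged H3K4me1 region in all 6 lists (16.6 kb, chr2:8622273-8638830) began 40.0 kb before the outermost start and overlapped no coding gene. Its widest single peak per list measured 4.57 to 16.5 kb. At ID3 the widest such region measured 21.0 kb and lay 28.0 kb before the start (chr1:23587486-23608506), with single peaks of 14.9 to 20.1 kb. These classes were compared as counts without a test.

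The tissue-specific partners of E proteins were a mixed group in these cells. Of 43 bHLH partner genes, 19 had H3K4me3, 13 had H3K27ac and 23 had H3K27me3 at start sites in 6 of 6 lists. All coding genes had these marks in 71.9, 64.2 and 20.1% of cases. HAND2, a regulator of the sympathetic lineage, and TWIST1 both had H3K4me3 and H3K27ac in 6 of 6 lists and H3K27me3 in none. H3K27ac at HAND2 was enriched 19.9-, 16.2- and 10.2-fold in DMSO and 23.1-, 17.4- and 10.8-fold in doxycycline, and its peaks measured 36.0 to 40.5 kb. At TWIST1, a mesenchymal regulator, it was 8.48-, 7.00- and 5.62-fold in DMSO and 9.89-, 8.55- and 6.01-fold in doxycycline. The libraries overlapped in both genes. No partner passed an adjusted p of 0.05 for rank, width or coverage in any mark.

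HAND2 was the partner with a start-site peak that separated the treatments. H3K4me2 peaks within 1 kb of its starts were in 0 of 3 DMSO lists and 3 of 3 doxycycline lists, with enrichments of 12.3-, 3.47- and 4.43-fold and widths of 5.64, 0.261 and 0.415 kb. Only the peak of doxycycline 1 was strong, at percentile 79.1 of all peaks of its list, and the others were at 4.68 and 28.3. This was 1 of 43 partners, each looked at in 5 marks. The shares of coding genes called were 0.316% in H3K4me1, 0.0301% in H3K4me2, 0.130% in H3K4me3, 0.331% in H3K27ac and 0.190% in H3K27me3. A single call from so many looks is not read as a trait of the partners.

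Genes of the BMP pathway upstream of the ID genes mostly carried H3K4me3. Of 19 genes (ligands, receptors, SMAD proteins and secreted antagonists), 18 had H3K4me3, 17 H3K4me2, 13 H3K4me1, 12 H3K27ac and 6 H3K27me3 at start sites in 6 of 6 lists. None had a start-site peak that separated the treatments, and none passed an adjusted p of 0.05 for rank, width or coverage in any mark.

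Markers were checked against the label of the cells. All 11 neuroblast markers had H3K4me3 and H3K27ac in 6 of 6 lists and H3K27me3 in none. Of 10 markers of blood, epithelium, liver, muscle, endothelium and mesenchyme, H3K27ac was in 6 of 6 lists at EPCAM and TWIST1 and in no list at the other 8, and 7 had H3K27me3 in 6 of 6 lists.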

How the data were processed

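In all, 34 samples were labelled: 30 libraries (5 histone marks, DMSO or doxycycline, 3 each) with a peak list and 4 inputs that served in calling. The labels gave each group and replicate number. The members and gene lists were chosen with earlier results of these data known.

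Per the file headers, the authors called each library against input with MACS2 2.1.1.20160309 on hg38 alignments of mapping quality 30 or more. Broad calling (q 0.05, linking at 0.1) was used for 18 lists, those of H3K27me3, H3K27ac and H3K4me1. Narrow calling at p 1e-05, where the methods state q 0.05, gave the 12 lists of the other marks. The reads of 101 bp were treated as single-ended. The labels list no input of replicate 3. Within a treatment, the lists of replicates 1 and 3 had the same input read total, 81.5 M in DMSO and 63.4 M in doxycycline. These lists thus appear to share an input, so their calls are not fully independent. Pileup, as deposited, is a signal, the coverage by fragments. The −log10 p-value, the −log10 q-value and the fold enrichment (a ratio to local input) are those deposited by the authors' caller. For narrow peaks they refer to the summit, and for broad peaks to the mean over the peak. They depend on depth and input, so peak strength was compared as a rank within each library.

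GENCODE release 44 (hg38) gave starts and bodies. No peak ended past an hg38 chromosome end (0 of the 30 lists). Start-site peaks lay within 1 kb of any start, windows were the body and 50 kb either side, and regions were merged at 1 bp of overlap. The percentile of the strongest start-site peak, the log2 summed width and log2(covered bp + 1000) were fitted in limma 3.58.1 (R 4.3.3) with an intensity trend, on genes with a peak in all 6 lists for percentile and width and on all coding genes for coverage. A fold change on the last scale understates change at low coverage. p-values were adjusted by Benjamini-Hochberg over all genes of a fit. The summed width also counts the part of a peak outside the 1 kb. Tables were made in python 3.11.15 with pandas 2.3.3 and numpy 2.4.6. Functions were tested on simulated data. For H3K4me3 and H3K27ac, 200 shifts of several times the typical spread between libraries were planted in each measure. The limma fit recovered 55 to 79% of them, so a member not called may still differ.

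Genes named were the 7 members, HAND2 and TWIST1, other partners or BMP genes past a threshold, and neighbours of named regions. A further partner that the rule names is not reported here. Regions named were the called ones and those widest in all 6 lists. Libraries with the same number deviated together (r over 0.1 in all 3 pairs, 0.116 to 0.632) in 7 of 15 checks by mark and measure, among them H3K4me3 percentile, so the replicate number was also used as a block. Alternatives covered thresholds, windows, list length, scaling, filters and left-out libraries.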

Additional observations from a re-analysis of the deposited data

How the results depend on the processing

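Under the alternatives tried (q of 0.001 or less, a 2.5 kb window, the canonical start, lists of equal length, other ranks and scales, 10 kb flanks, other filters, each library left out and the replicate block), the count of members called stayed at 0 for start-site peaks, width and coverage, and for rank it was 0 in all settings but one. Without doxycycline replicate 3, ID3 was called in H3K27ac rank, and leaving out libraries gave 0 to 1 members there. With the replicate block 0 members were called. The 7 single differences followed kept their sign in all settings. For called regions in the windows, leaving out libraries gave 3 to 8 in H3K4me1, 2 to 3 in H3K4me2, 1 to 3 in H3K4me3 and 1 to 6 in H3K27ac. Leaving out a library loosens that rule, so these counts could only stay or rise. A q of 0.001 or less gave 0 in H3K4me1 and 2 in H3K27ac. Lists of equal length gave 5 in H3K4me1, 2 in H3K4me3 and 2 in H3K27ac. Peaks covering 50% of a region gave 1 in H3K4me2, 2 in H3K4me3 and 2 in H3K27ac. Flanks of 10 kb gave 1 in H3K4me2 and 0 in H3K4me3, since fewer regions lie in them. The cause of the moves under the q, list length and 50% settings was not tested. Members with the 4 active marks numbered 6 in DMSO and 6 to 7 in doxycycline in all settings tried for them. Calling depth was lower in every doxycycline library than in every DMSO library, and its part in the presence of weak peaks was not tested.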
